A study of Mus musculus with 7 samples.

Results

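The cytochrome P450 enzymes of families 1 to 3 were followed in liver RNA of mice that lack C3ar1, the receptor gene of the complement fragment C3a, and of their wild-type littermates. Members were the probes whose annotated symbol is Cyp1, Cyp2 or Cyp3 followed directly by a letter, a rule that uses no measured value. It took 55 probes of 52 genes, out of 23574 probes and 16462 named genes on the arrays. The livers came from 3 C3ar1-/- knockout mice, numbered 2 to 4, and 4 wild-type littermates, numbered 1 to 4, all fed chow. On each 2-colour array a single mouse was compared with one reference, pooled from the livers of 6 wild types. Not given in the sources used here are sex, age, strain, the deleted part of C3ar1, and whether the 4 wild types also entered the pool. All values are log ratios of mouse over pool, read in base 10, where a difference of 0.301 is 2-fold. Base and direction were inferred rather than read from a label. If pool over mouse were the true direction, higher and lower would swap throughout.

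P450 enzymes hold a heme group in the membrane of the endoplasmic reticulum and insert oxygen into drugs, toxicants, steroids and fatty acids. Electrons reach them from P450 reductase and cytochrome b5. In hepatocytes the Cyp1 genes are known targets of the aryl hydrocarbon receptor (Ahr), Cyp2b genes of the constitutive androstane receptor (CAR, gene Nr1i3) and Cyp3a genes of the pregnane X receptor (PXR, gene Nr1i2). Several mouse members differ between the sexes under the control of growth hormone, and most lie in clusters of near-identical copies, so that a probe can read more than one gene.

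The 7 arrays differed in the spread of their ratios, with an SD over all probes of 0.0975 in knockout liver 2 and of 0.0466 to 0.0676 elsewhere. C3ar1 itself read -0.0296, -0.0318, 0.0225 and 0.0264 in wild-type livers 1 to 4 and 0.0042, 0.0337 and 0.0514 in knockout livers 2 to 4. It differed by 0.0329 ± 0.0233 (SE) between the genotypes (limma, adjusted p = 0.884), a value that checks no label because the place of its probe relative to the deletion is unknown. A ratio against a liver pool gives no absolute level, so hepatocyte markers could show only how far the livers lay from the pool: the mean of the 10 measured of 12 listed lay between -0.0147 and 0.0162 in the wild types and between -0.0051 and 0.0497 in the knockouts. In such bulk RNA, fewer cells of a type and less RNA per cell cannot be told apart.

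None of the 55 P450 probes passed the test of knockout against wild type (limma over all 23574 probes, adjusted p at or above 0.884), where 0.00424% of all probes did. The enzyme with the smallest p was Cyp2j5, at an unadjusted p of 0.0232. It was the 1 member under an unadjusted p of 0.05, a level that 4.47% of all probes reached, 2.61% lower and 1.86% higher in the knockouts. Without knockout liver 3 that level was reached by 8 of the 55, or 14.5%, against 6.74% of all probes, and still 0 passed after adjustment. Each other fit that left out 1 liver had 1 to 3 such members. These were 1.82% to 5.45% of the 55, against 2.80% to 4.97% of all probes. In the complete set Cyp2j5 was also the 1 member whose groups did not overlap, as was so for 5.26% of all probes, 2.54% lower and 2.71% higher. Of the members 30 read lower and 25 higher in the knockouts, with a median difference of -0.0122 against 0.00555 over all probes. The knockout mean lay below the wild-type mean in 43% of all probes. This median was 0.0124 with 21 lower without knockout liver 4, -0.0364 with 33 lower without knockout liver 3, 0.0124 when arrays were weighted, and 0.00116 with quantile normalization. Leaving out some liver turned the difference or moved it by over 1.5 times in 52 of the 55 probes. No share over all probes is set beside this count, so it is not read as a trait of these enzymes. Single differences below are therefore read with their SE and the liver values. For 47 of the 55 the 95% interval of the difference stayed within 2-fold either way, as it did for 97.8% of all probes. The wider intervals belonged to Cyp2a4, Cyp2b9, Cyp2b10, Cyp2b13, Cyp2c70, Cyp2r1, Cyp3a13 and 1 probe of Cyp3a41a.

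**Figure D1:**
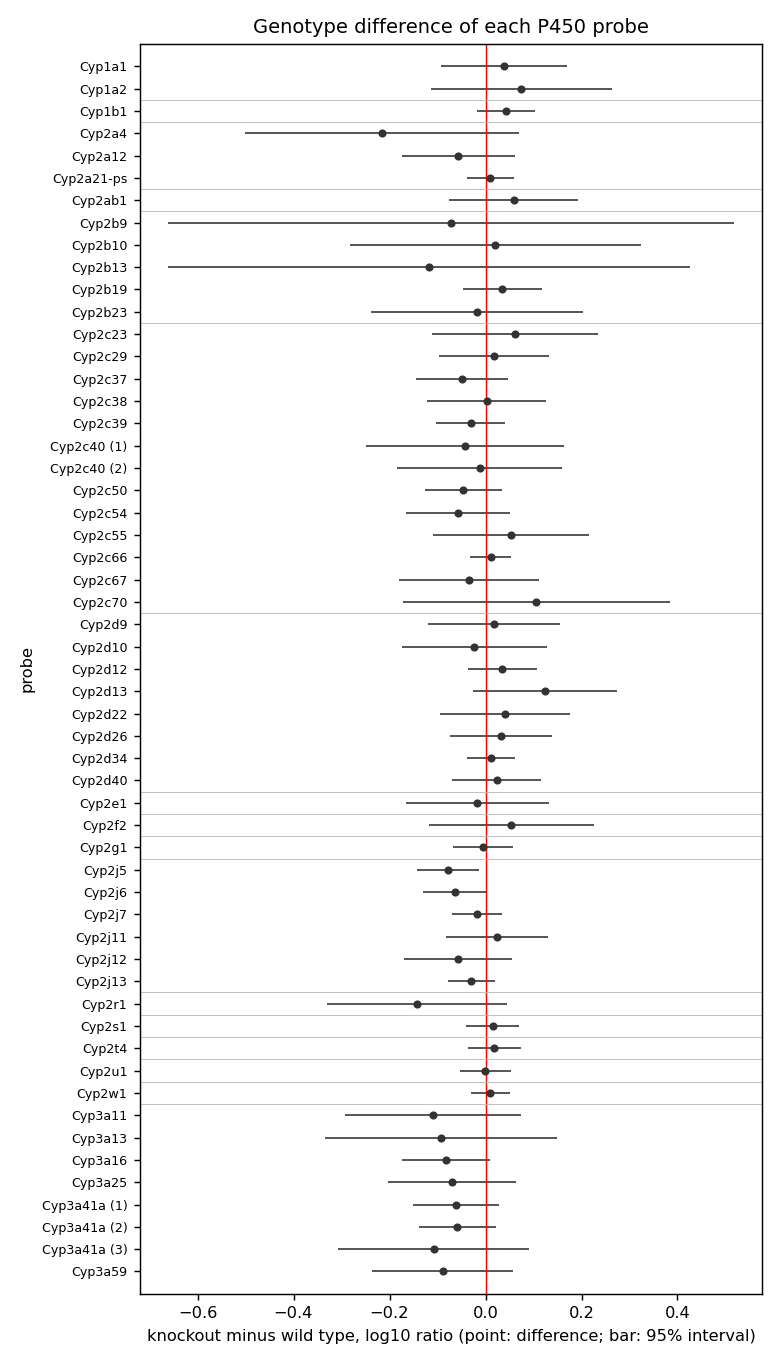
Difference between knockout and wild type (log10 ratio, x axis) for each of the 55 probes (y axis, grouped by subfamily), with points for the difference and bars for its 95% interval. The intervals of all probes other than Cyp2j5 cross 0, the 8 Cyp3a points lie left of 0, and Cyp2b9 and Cyp2b13 have the widest bars.

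The ratios of these enzymes spread widely between livers of one genotype. With 1 set of ratios per mouse, differences between mice and between arrays cannot be told apart. The comparison with all probes used no filter on expression, since the ratios give no absolute level. The pooled SD within the genotypes had a median of 0.0782 over the 55 probes and 0.0360 over all probes. It exceeded the 90th percentile of all probes, 0.0851, in 26 of 55 members, or 47.3%, against 10% of all probes. With any 1 liver left out this share was between 36.4% and 50.9%. Wide spread was also seen in some other liver gene lists, with probes averaged per gene. The median SD was 0.0902 for receptor targets, 0.0935 for acute phase, 0.110 for periportal and 0.127 for female-biased genes outside the P450 families. It was lower for hepatocyte markers, 0.0516, and for pericentral genes, 0.0441. The 39 probes of the other P450 families, Cyp4 and above, had a median SD of 0.0656, and 15 of them were above the 90th percentile. No test was made of these shares, since neighbouring genes and probes share sequence.

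**Figure D2:**
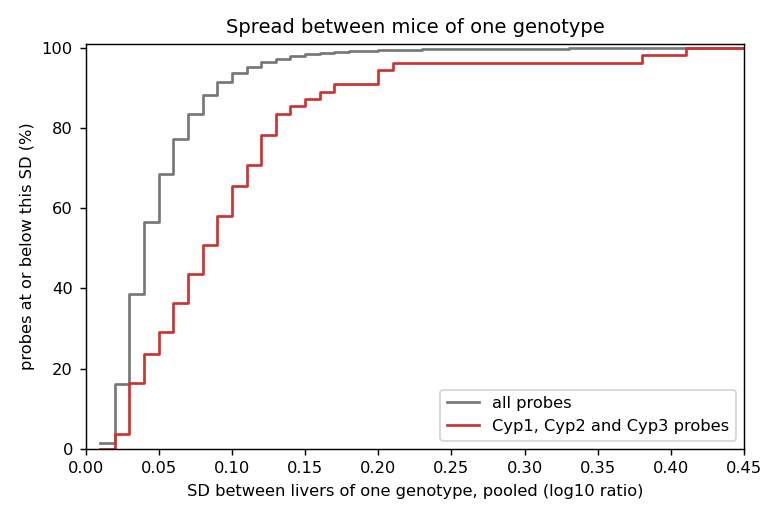
Cumulative share of probes (y axis, %) by the pooled SD between livers of one genotype (x axis, log10 ratio), for all 23574 probes in grey and the 55 P450 probes in red. The red curve runs to the right of the grey one, with medians of 0.0782 and 0.0360.

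**Figure D3:**
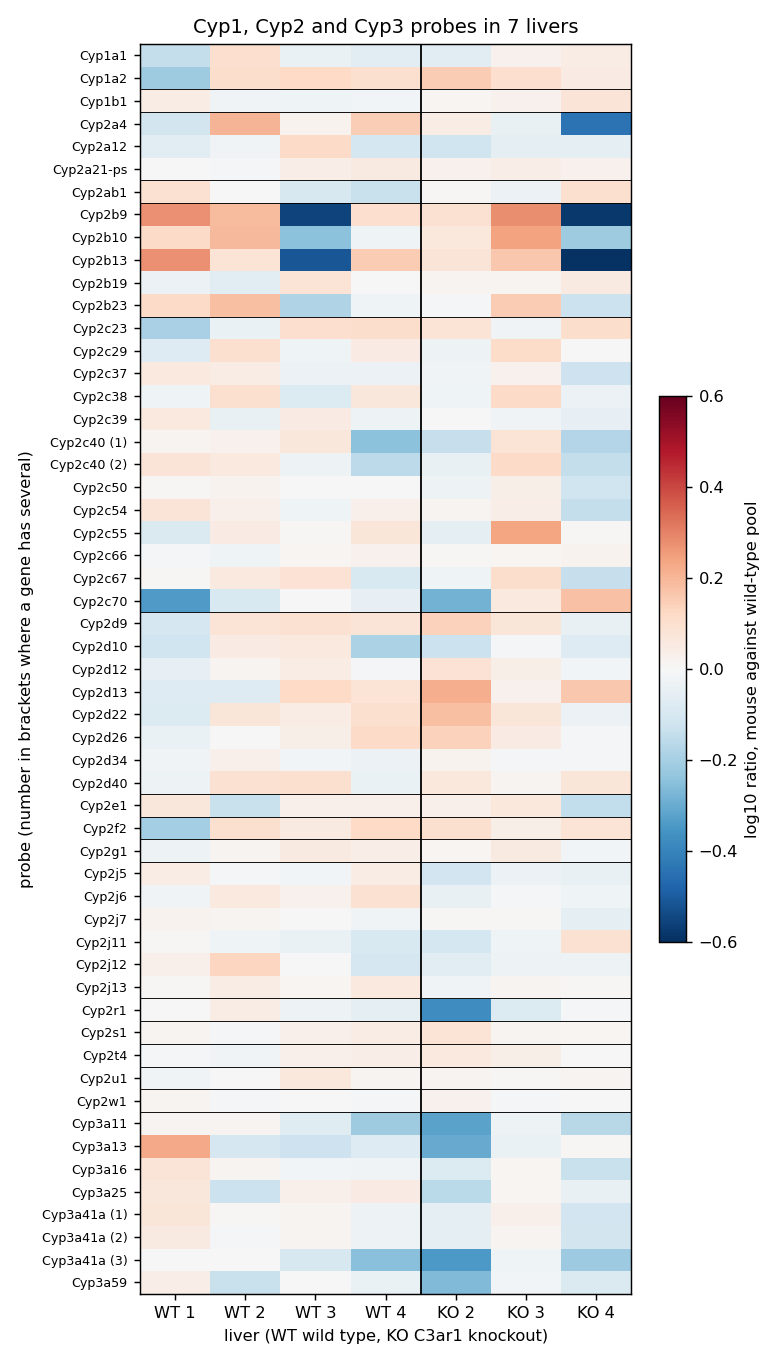
Log10 ratio of mouse over pool (colour, red above and blue below the pool) for the 55 probes (rows, by subfamily) in 4 wild-type and 3 knockout livers (columns). Deep blue cells stand in wild-type liver 3 and knockout liver 4 for Cyp2b9 and Cyp2b13, in knockout liver 4 for Cyp2a4, in wild-type liver 1 for Cyp2c70 and in knockout liver 2 for Cyp2r1 and several Cyp3a probes.

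Among the subfamilies Cyp2b had the largest median SD between mice of one genotype, 0.209, and its low livers fell on both sides of the genotype. Cyp2b9 and Cyp2b13 encode steroid hydroxylases that are more abundant in female mouse liver, and Cyp2b10 is the classical gene induced by phenobarbital through CAR. They lie in 1 cluster on chromosome 7 and are shown here by the 250 bases before their starts, because all were lowest in the same livers. The sequences are from RefSeq, GRCm38.p6, plus strand, at chr7:26173159-26173408 for Cyp2b9, chr7:26061245-26061494 for Cyp2b13 and chr7:25897408-25897657 for Cyp2b10. Capitals mark the pattern TTGCNNAA, searched on both strands, which is the kind of site that C/EBP factors of the liver bind.
Cyp2b9: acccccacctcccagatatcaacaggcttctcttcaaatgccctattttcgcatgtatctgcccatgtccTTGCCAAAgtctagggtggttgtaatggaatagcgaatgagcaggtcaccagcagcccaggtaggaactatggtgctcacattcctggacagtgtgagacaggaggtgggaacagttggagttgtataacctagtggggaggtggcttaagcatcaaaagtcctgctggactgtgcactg
Cyp2b13: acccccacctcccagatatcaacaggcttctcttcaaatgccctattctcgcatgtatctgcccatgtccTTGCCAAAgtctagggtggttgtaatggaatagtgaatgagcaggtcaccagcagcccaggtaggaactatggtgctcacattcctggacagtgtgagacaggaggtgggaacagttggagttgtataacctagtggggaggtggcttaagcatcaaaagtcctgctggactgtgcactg
Cyp2b10: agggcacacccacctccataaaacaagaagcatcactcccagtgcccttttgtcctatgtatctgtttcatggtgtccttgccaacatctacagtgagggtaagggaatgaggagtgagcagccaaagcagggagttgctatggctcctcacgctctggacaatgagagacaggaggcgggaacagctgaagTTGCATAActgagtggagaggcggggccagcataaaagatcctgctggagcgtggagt

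The windows of Cyp2b9 and Cyp2b13 were identical at 248 of 250 bases. From Cyp2b9 to Cyp2b13 they differed by T48C and C104T, counted from 1 at the 5′ end. Cyp2b10 matched either of them at 182 of 240 aligned bases, or 75.8%. TTGCNNAA stood 180 bases before the start in Cyp2b9 and Cyp2b13 and 58 bases before it in Cyp2b10, and was also found in Cyp2b19 and Cyp2b23. Over all 32851 windows of that length 9.56% held it, and 10 of 45 windows of the 42 members with a listed promoter did. Those include the windows of all 5 Cyp2b genes, which share sequence, so the 10 are not separate cases. TATAAA was in 19 of the 45 member windows against 12.4% of all, and in none of the 5 Cyp2b windows. GCGTG, the core letters of the Ahr site, was in 8 of 45 against 28.2%, among them Cyp1a1, Cyp1b1 and Cyp2b10, and TTCNNNGAA, the letters of a STAT site, in 2 of 45 against 7.02%.

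Cyp2b9 read 0.272, 0.191, -0.557 and 0.0991 in wild-type livers 1 to 4 and 0.0898, 0.278 and -0.579 in knockout livers 2 to 4. Cyp2b13 gave 0.274, 0.0816, -0.512 and 0.153 in wild-type livers 1 to 4 and 0.0768, 0.162 and -0.593 in knockout livers 2 to 4. The low livers, wild-type 3 and knockout 4, were thus the same for both genes, 1 of each genotype, and both stood apart from the other 5, in which every value was above the pool. From the lowest to the highest liver the range was 7.19-fold for Cyp2b9 and 7.37-fold for Cyp2b13, the largest among the members. The probes cannot be taken as separate evidence, since genes this alike may share signal.

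Cyp2b10 was lowest in the same livers with a smaller range, at 0.114, 0.196, -0.248 and -0.0260 in wild-type livers 1 to 4 and 0.0636, 0.239 and -0.214 in knockout livers 2 to 4. Cyp2b23 (liver values of this gene and Cyp2b19 were added after they were seen) did likewise, with -0.178 in wild-type liver 3, -0.128 for knockout liver 4 and -0.0275 to 0.178 in the other livers. Cyp2b19, known from skin, did not share the pattern and read 0.0818 and 0.0551 in the livers where the others were low. The genotype differences of the 5 probes ran from -0.117 for Cyp2b13 to 0.0353 for Cyp2b19 with a median of -0.0171, and the median turned to 0.120 without knockout liver 4 and 0.0188 and 0.0145 without wild-type livers 1 and 2, and 0.0743 with array weights, while leaving out liver 3 of either genotype gave -0.0897 (knockout) and -0.0839 (wild type). For Cyp2b10 the knockout to wild-type ratio was 1.05 (95% interval 0.523 to 2.10), and for Cyp2b9 0.848 (95% interval 0.218 to 3.30).

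**Figure D4:**
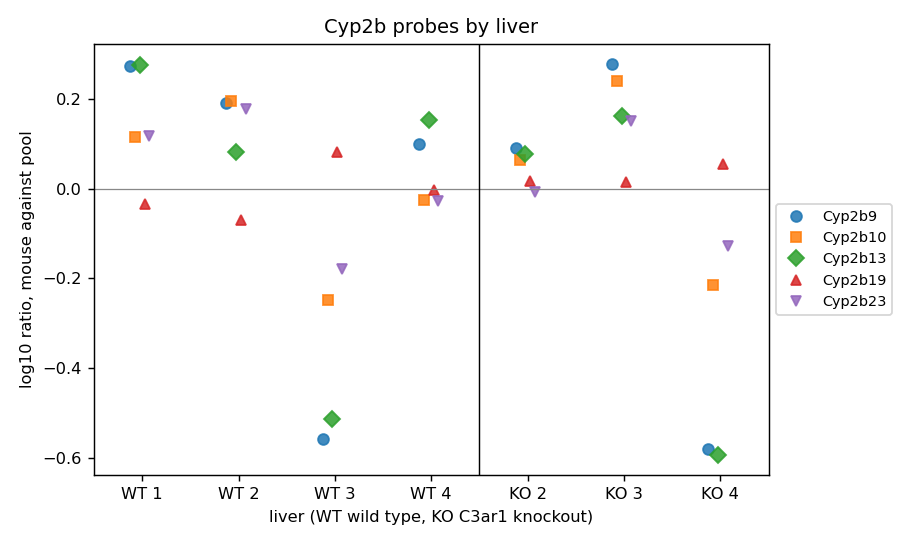
Log10 ratio of mouse over pool (y axis) of the 5 Cyp2b probes in each liver (x axis, wild types left and knockouts right of the line). Cyp2b9 and Cyp2b13 lie between 0.0768 and 0.278 in 5 livers and between -0.593 and -0.512 in wild-type liver 3 and knockout liver 4, with Cyp2b10 and Cyp2b23 also lowest there.

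The livers low in Cyp2b differed from each other in several other lists and lay on the same side in the means of the sex-biased ones. Genes of the acute phase response, such as serum amyloids, averaged 0.300 in knockout liver 4 against -0.0990 for wild-type liver 3. Macrophage and Kupffer cell markers had means of 0.122 and -0.241 in the same livers, the highest and the lowest of the 7. Alas1, the first and rate-limiting enzyme of heme synthesis, named after its values were seen, read 0.119 in wild-type liver 3, -0.938 for knockout liver 4 and -0.0864 to 0.264 elsewhere. CAR itself was read by 2 probes that disagreed: in knockout liver 4 one gave 0.0309 and the other -0.251, against 0.0415 and 0.0758 in wild-type liver 3. In both low livers female-biased genes outside the P450 families had their lowest means, -0.1001 in wild-type liver 3 and -0.212 in knockout liver 4. The other livers lay at -0.0292 to 0.0823. Male-biased genes had their highest means in the low livers, -0.0047 and 0.0761 against -0.364 to -0.148. The female-biased mean of wild-type liver 3 held 1 gene, Nipal1, at -0.744. By list medians wild-type liver 3, at -0.0424, lay above knockout liver 2, at -0.0609. The male-biased medians stayed highest in the low livers, at 0.08655 and 0.05875. The part of any of these in the Cyp2b values was not tested.

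The Cyp3a probes were the one large subfamily in which every probe read lower in the knockouts, 8 of 8, without any passing the test. Cyp3a11 is the main drug-oxidising P450 of mouse liver and the best-known PXR target. It gave 0.0186, 0.0153, -0.0724 and -0.215 in wild-type livers 1 to 4 and -0.322, -0.0285 and -0.168 in knockout livers 2 to 4. Knockout liver 2 was the lowest, wild-type liver 4 lay below both other knockouts, and the groups overlapped. The knockout to wild-type ratio of Cyp3a11 was 0.777 (95% interval 0.509 to 1.19), from a difference of -0.109 ± 0.0792 (SE) that was -0.0348 without knockout liver 2, -0.0148 when arrays were weighted, and -0.181 if knockout liver 3 was left out.

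Cyp3a41a and Cyp3a16 encode forms known from female and young mice. Cyp3a16 read 0.0764, 0.0183, -0.0156 and -0.0221 in wild-type livers 1 to 4 and -0.0819, 0.0120 and -0.134 in knockout livers 2 to 4, and differed by -0.0822 ± 0.0391 (SE), with an unadjusted limma p of 0.0703. In the knockouts livers 2 and 4 were below every wild type and liver 3 was not. The 3 probes of Cyp3a41a disagreed in size: probes 1 and 2 differed by -0.0616 ± 0.0386 (SE) and -0.0592 ± 0.0344 (SE), and probe 3 by -0.107 ± 0.0855 (SE). Probe 3 read -0.0007, -0.0031, -0.0943 and -0.252 in wild-type livers 1 to 4 and -0.343, -0.0260 and -0.216 in knockout livers 2 to 4. Its values lay within 0.05 of those of Cyp3a11 in every liver, while probe 1 ran from -0.117 to 0.0717. Without knockout liver 2 probe 3 differed by -0.0336, and without knockout liver 3 by -0.192. Which copies each probe reads was not tested.

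Cyp3a13, which is also expressed in intestine, had the widest range of the subfamily, 3.38-fold. It read 0.226, -0.0995, -0.126 and -0.0761 in wild-type livers 1 to 4 and -0.303, -0.0385 and 0.0086 in knockout livers 2 to 4, with wild-type liver 1 far above the others and knockout liver 2 far below. Cyp3a25 and Cyp3a59 differed by -0.0705 ± 0.0573 (SE) and -0.0887 ± 0.0632 (SE), and by -0.0218 and -0.0175 without knockout liver 2. Over the 8 probes the median difference was -0.0854, and the medians by liver were 0.0610, -0.0052, -0.0066 and -0.0352 in wild-type livers 1 to 4 and -0.213, -0.00115 and -0.115 in knockout livers 2 to 4. Knockout liver 3 thus stood among the wild types. Without knockout liver 2, the array of widest spread, 7 of 8 were lower and the median was -0.0342. Array weights gave 7 of 8 and -0.0275, and without wild-type liver 1 it was -0.0555 with 8 of 8. In the other direction, without knockout liver 3, the one that stood among the wild types, all 8 were lower with a median of -0.125. In that fit 5 of 8 had an unadjusted limma p under 0.05, against 6.74% of all probes. The complete set had 0, and each other fit that left out 1 liver had 0 or 1.

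**Figure D5:**
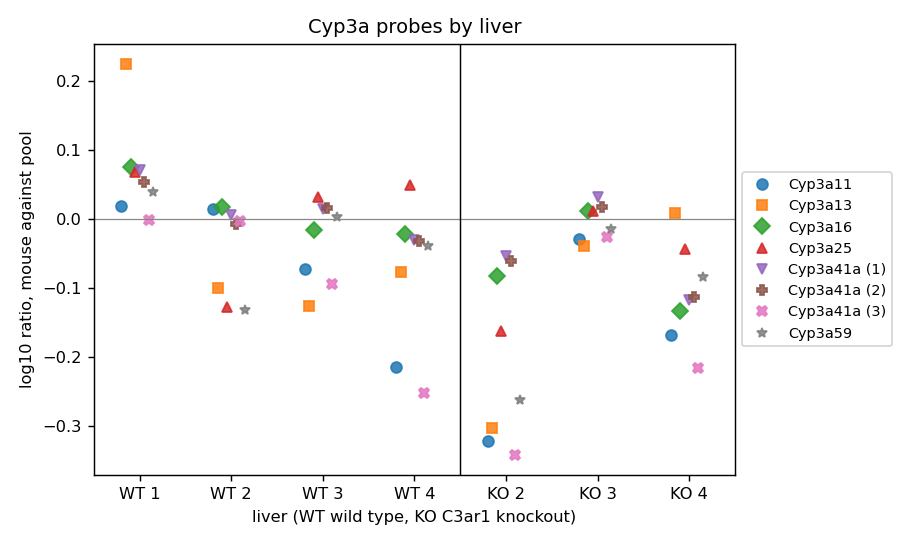
Log10 ratio of mouse over pool (y axis) of the 8 Cyp3a probes in each liver (x axis, wild types left and knockouts right of the line). Most points of knockout livers 2 and 4 lie below 0, down to -0.343, while knockout liver 3 lies between -0.0385 and 0.0322, inside the range of the wild types.

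The receptors known to drive these genes were read in the same livers. PXR (Nr1i2) read 0.0136, -0.0503, 0.0592 and 0.182 in wild-type livers 1 to 4 and 0.324, 0.123 and -0.0347 in knockout livers 2 to 4, highest in the liver where Cyp3a11 was lowest. That liver, knockout 2, had the array of widest spread. It held the highest value of 29.0% and the lowest of 18.7% of all probes, so extremes there are common. Ahr read 0.0731, -0.0131, 0.0053 and -0.0540 in wild-type livers 1 to 4 and -0.279, 0.0453 and -0.179 in knockout livers 2 to 4, low in the same 2 knockout livers as Cyp3a, and differed by -0.140 ± 0.0717 (SE, limma, adjusted p = 0.872). Of the 14 measured of 15 listed receptors and regulators, 7 were higher and 7 lower, 0 passed, and the median difference was -0.00313. Nfe2l2, which encodes the oxidative stress factor Nrf2, had the smallest p of them, with a difference of -0.0940 ± 0.0383 (SE). Here and below, genes of several probes were averaged, and 0.00607% of the 16462 genes passed and 4.79% had an unadjusted p under 0.05.

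RNA of proteins that serve P450 enzymes mostly read lower in the knockouts. The 5 measured of 6 listed electron partners and associated proteins had a median difference of -0.0721 against 0.00543 over all genes, with 4 lower and 0 past the test. P450 reductase itself (Por) was not among the measured ones, so this electron source was not read. Pgrmc1, a heme-binding membrane protein that associates with P450s, read 0.0408, 0.0197, 0.0101 and -0.0049 in wild-type livers 1 to 4 and -0.107, -0.0390 and -0.0939 in knockout livers 2 to 4, and its groups did not overlap. The difference was -0.0963 ± 0.0224 (SE, limma, adjusted p = 0.872). Cyb5a, cytochrome b5 itself, differed by -0.0621 ± 0.0355 with overlapping groups. Of the 10 measured genes of heme synthesis and breakdown 7 were lower, with a median of -0.0367, and 0 passed. This median was -0.00901 with array weights and 0.0117 in the highest of the fits that left out 1 liver.

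The Cyp2j genes, which make epoxides of arachidonic acid, read lower in 5 of 6 probes, with a median difference of -0.0433. Cyp2j5, strong in kidney and liver, gave 0.0447, -0.0131, -0.0174 and 0.0425 in wild-type livers 1 to 4 and -0.113, -0.0333 and -0.0466 in knockout livers 2 to 4. All knockouts lay below all wild types, as in 2.54% of all probes, and the gap between the nearest livers was small. The ratio was 0.835 (95% interval 0.719 to 0.968). Cyp2j6 read -0.0234, 0.0606, 0.0270 and 0.0901 in wild-type livers 1 to 4 and -0.0432, -0.0056 and -0.0240 in knockout livers 2 to 4, and wild-type liver 1 lay among the knockouts. It differed by -0.0628 ± 0.0287 (SE). Cyp2j13, Cyp2j12 and Cyp2j7 differed by -0.0294, -0.0572 and -0.0177 and Cyp2j11 by 0.0245. The 6 Cyp2j probes had a median SD between mice of 0.0387, and 5 of 6 were lower in each fit that left out 1 liver, though their median was -0.0213 without wild-type liver 2.

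Cyp2d probes leaned the other way, with 7 of 8 higher in the knockouts and a median difference of 0.0278. Cyp2d13 had the largest difference of any member toward higher values, 0.124 ± 0.0645 (SE), and read -0.0761, -0.0765, 0.120 and 0.0820 in wild-type livers 1 to 4 and 0.218, 0.0279 and 0.163 in knockout livers 2 to 4. Wild-type livers 3 and 4 overlapped the knockouts, and livers 1 and 2 did not. Cyp2d9, the testosterone 16-alpha hydroxylase more abundant in males, read -0.101, 0.0810, 0.0910 and 0.0751 in wild-type livers 1 to 4 and 0.137, 0.0742 and -0.0459 in knockout livers 2 to 4, with wild-type liver 1 apart from the other wild types and the ratio between genotypes at 1.04 (95% interval 0.761 to 1.43). Cyp2d22, counted as the relative of human CYP2D6, differed by 0.0406 ± 0.0586 (SE), Cyp2d26 by 0.0326 ± 0.0454 (SE) and Cyp2d10 by -0.0230 ± 0.0652 (SE). The medians of Cyp2d by liver were -0.063, 0.0404, 0.0511 and 0.0331 in the wild types and 0.111, 0.0316 and -0.0123 in the knockouts, so that wild-type liver 1 was lowest and knockout liver 2 highest. Without either of these livers the median difference was 0.00565 and 0.00321, and without knockout liver 4 it was 0.0638.

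The Cyp2c genes, 13 probes of 12 genes on chromosome 19, were split, with 6 higher and 7 lower and a median of -0.0122. Most of them oxidise arachidonic and linoleic acid. Cyp2c29, a CAR-responsive and abundant member, read -0.0789, 0.0938, -0.0264 and 0.0474 in wild-type livers 1 to 4 and -0.0297, 0.112 and -0.0033 in knockout livers 2 to 4 and differed by 0.0173 ± 0.0494 (SE). Cyp2c55 read 0.237 in knockout liver 3 and -0.0857 to 0.0707 in the other 6 livers. Cyp2c37, Cyp2c50 and Cyp2c54 were each lowest in knockout liver 4, at -0.124, -0.121 and -0.145, and differed by -0.0486, -0.0464 and -0.0569. Without that liver these differences were -0.00715, -0.00573 and 0.000775.

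Cyp2c40, a female-biased member with 2 probes, differed by -0.0424 ± 0.0887 (SE) and -0.0122 ± 0.0738 (SE). Both probes were lowest in wild-type liver 4, at -0.244 and -0.157, and next lowest in knockout liver 4, at -0.175 and -0.145, once more in 1 liver of each genotype. Cyp2c39, known to hydroxylate retinoic acid, differed by -0.0307 ± 0.0309 (SE). Cyp2c70, which makes the muricholic acids of rodent bile, had the widest range of the subfamily, 3.31-fold. It read -0.342, -0.0932, -0.0032 and -0.0503 in wild-type livers 1 to 4 and -0.286, 0.0576 and 0.177 in knockout livers 2 to 4, lowest in a wild type and next lowest in a knockout. The ratio between genotypes was 1.27 (95% interval 0.672 to 2.42). Its difference of 0.105 was 0.00820 when knockout liver 4 was left out and 0.0320 when wild-type liver 1 was, whereas leaving out knockout liver 2 gave 0.240. The Cyp2c median was 0.0082 without knockout liver 4, 0.0376 with array weights and -0.0458 without knockout liver 3.

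In the Cyp2a group the member with the largest genotype difference of all 55 was Cyp2a4, the testosterone 15-alpha hydroxylase of female liver. It read -0.112, 0.203, 0.0221 and 0.150 in wild-type livers 1 to 4 and 0.0432, -0.0466 and -0.445 in knockout livers 2 to 4. Knockout liver 4 held the low value, and the other knockouts lay within the range of the wild types. The difference of -0.215 ± 0.123 (SE) was -0.0676 without knockout liver 4, and -0.312 without knockout liver 2. Cyp2a12, a testosterone 7-alpha hydroxylase, differed by -0.0570 and overlapped, and the pseudogene Cyp2a21-ps by 0.00976. The median of these 3 probes, -0.0570, was -0.0117 without wild-type liver 3 but -0.0851 when wild-type liver 4 was left out.

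All 3 Cyp1 probes read higher in the knockouts, each with overlap, with a median of 0.0427 that was 0.00313 without wild-type liver 1 but 0.0845 when wild-type liver 2 was left out. Cyp1a2, which oxidises caffeine and aromatic amines in the cells around the central vein, read -0.213, 0.104, 0.119 and 0.0983 in wild-type livers 1 to 4 and 0.154, 0.101 and 0.0505 in knockout livers 2 to 4. All livers but wild-type 1 were above the pool, and the ratio between genotypes was 1.19 (95% interval 0.770 to 1.83). Without wild-type liver 1 the difference turned to -0.00533. Cyp1a1, the most inducible Ahr target, read -0.144, 0.100, -0.0388 and -0.0685 in wild-type livers 1 to 4 and -0.0679, 0.0244 and 0.0457 in knockout livers 2 to 4, with its highest value in a wild type. Cyp1b1, which is found mainly outside hepatocytes, differed by 0.0427 ± 0.0263 (SE) and read 0.0468, -0.0232, -0.0257 and -0.0164 in wild-type livers 1 to 4 and 0.0114, 0.0242 and 0.0786 in knockout livers 2 to 4. Stellate cell and fibroblast markers, among the cells that hold Cyp1b1, read higher for 8 of 9 genes, with means of -0.0814 to 0.00238 in the wild types and -0.00278 to 0.0430 in the knockouts, and their part was not tested.

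Of the subfamilies with 1 member, Cyp2e1 and Cyp2f2 are the most abundant in liver. Cyp2e1, which oxidises ethanol and paracetamol in the centre of the lobule, read 0.0670, -0.135, 0.0322 and 0.0301 in wild-type livers 1 to 4 and 0.0301, 0.0626 and -0.148 in knockout livers 2 to 4, low in 1 liver of each genotype. Its ratio was 0.962 (95% interval 0.683 to 1.35). Cyp2f2, a naphthalene-oxidising enzyme of the portal side, read -0.202, 0.0974, 0.0536 and 0.119 in wild-type livers 1 to 4 and 0.0976, 0.0335 and 0.0810 in knockout livers 2 to 4, low in wild-type liver 1 like Cyp1a2 and Cyp2d9. Cyp2r1, a vitamin D 25-hydroxylase, read -0.375 in knockout liver 2, -0.0805 and -0.0053 in the other knockouts and -0.0532 to 0.0422 in the wild types. Its difference of -0.143 ± 0.0803 (SE) was -0.0323 without knockout liver 2. Cyp2u1, a fatty acid hydroxylase, differed by -0.000108 ± 0.0231 (SE), and Cyp2s1, Cyp2t4, Cyp2w1, Cyp2g1 and Cyp2ab1 by 0.0153, 0.0187, 0.0103, -0.00522 and 0.0584.

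The position of the enzymes in the lobule was compared with other zonal genes. Of 10 measured pericentral genes outside the P450 families 7 were lower in the knockouts, with a median of -0.0646 and 4 at an unadjusted p under 0.05, none of which passed. Oat, ornithine aminotransferase, read 0.0811, 0.111, -0.0888 and 0.0161 in wild-type livers 1 to 4 and -0.137, -0.136 and -0.238 in knockout livers 2 to 4, below every wild type in each knockout. Rgn (regucalcin) differed by -0.0891 ± 0.0296, Lgr5 by -0.0877 ± 0.0309 and Axin2 by -0.0679 ± 0.0241 (SE), the latter both Wnt targets of the central vein. Glul, glutamine synthetase of the innermost pericentral cells, chosen for mention after its values were seen, differed by 0.00367 ± 0.0294. Of 10 periportal genes 9 were higher, with a median of 0.0465 and 0 past the test. The pericentral P450 genes Cyp2e1 and Cyp1a2 differed by -0.0169 and 0.0749 and the periportal Cyp2f2 by 0.0537. The other members were not sorted by zone, so these enzymes do not stand for all P450 genes of a zone. Without 1 liver the pericentral median lay between -0.0733 and -0.0308 and the periportal one between 0.0120 and 0.0881.

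Targets of CAR, PXR and Ahr outside the P450 families were read beside the enzymes. Of 20 measured of 23 listed, 8 were higher and 12 lower, with a median of -0.00382 and 0 past the test. Aldh1a7, an aldehyde dehydrogenase, read 0.0451, 0.0675, 0.0411 and 0.0090 in wild-type livers 1 to 4 and -0.0977, -0.0599 and -0.136 in knockout livers 2 to 4, and differed by -0.138 ± 0.0240 (SE, limma, adjusted p = 0.758) with no overlap. Its near relative Aldh1a1 differed by -0.116 ± 0.0404 and the drug efflux pump gene Abcb1a by -0.244 ± 0.0988. Ces2a, a carboxylesterase, was higher by 0.106 ± 0.0493. The 20 genes had means of -0.0119 to 0.0590 in the wild types and of -0.0957 in knockout liver 4 against 0.0465 and 0.0355 in the other knockouts.

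Sex-biased members were read as a group because many of the widest ranges belonged to them. The 2 male-biased members, Cyp2d9 and Cyp2u1, differed by 0.0186 and -0.000108. Of 13 listed female-biased P450 genes 8 were measured. Of their 11 probes 10 were lower in the knockouts, with a median of -0.0616 over probes, and 0 passed. They include the Cyp2b9, Cyp2b10, Cyp2b13, Cyp3a16 and Cyp3a41a probes described above, so the count is not separate evidence. Without knockout liver 4 the count was 6 of 11, and with array weights it was 5 of 11 with a median of 0.000621. Without liver 3 of either genotype it was 11 of 11, with medians of -0.122 (knockout) and -0.0651 (wild type). Leaving out that knockout gave 4 of 11 probes an unadjusted limma p under 0.05, against 6.74% of all probes. The complete set had 0 such probes, and each other fit that left out 1 liver had 0 or 1. The Y-linked genes Kdm5d and Uty, whose ratios to the pool would part male from female livers if the array reads them well, ran from -0.202 to -0.0242 and from -0.0345 to 0.0340, with wild-type liver 3 at -0.0909 and 0.0340 and knockout liver 4 at -0.0655 and 0.00340. Hao2, a female-biased oxidase, read 0.120, -0.0869, -0.170 and -0.0017 in wild-type livers 1 to 4 and -0.205, -0.101 and -0.382 in knockout livers 2 to 4, and the male-biased Hsd3b5 -0.499, -0.331, 0.226 and 0.0066 in wild-type livers 1 to 4 and -0.152, 0.142 and 0.285 in knockout livers 2 to 4. Both lists outside the P450 families pointed the same way, with 10 of 13 female-biased genes lower and 8 of 10 male-biased genes higher in the knockouts, and neither holds a gene that passed. Their median differences, -0.0836 and 0.0887, were -0.0284 and 0.0277 without knockout liver 4, and the male-biased one was 0.0125 without wild-type liver 1.

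Markers of other cells were compared for the same livers. All 10 measured of 11 Kupffer cell and macrophage markers read higher in the knockouts, with means of -0.241 to -0.0723 in the wild types and -0.179 to 0.122 in the knockouts. Their median difference of 0.0460 was -0.00489 without knockout liver 4. For endothelial markers 9 of 10 read higher, with means of -0.0638 to 0.0215 and -0.0133 to 0.0547. Markers of bile duct, lymphocytes, neutrophils, red cells and of pancreas and fat were higher in 3 of 5, 6 of 7, 4 of 6, 1 of 2 and 4 of 5. No marker in any of these lists passed the test. Acute phase genes were higher in 14 of 14, with a median of 0.0873 that was 0.0120 without knockout liver 4, means of -0.0990 to 0.103 in the wild types and of -0.112, -0.0186 and 0.300 in knockout livers 2 to 4. Their part in the P450 values was not tested.

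The other P450 families, whose enzymes act mostly on sterols, bile acids and fatty acids, served for comparison. Of their 39 probes 25 were higher and 14 lower in the knockouts, with a median difference of 0.0155, and 0 passed. The difference between these and families 1 to 3 was not tested. Against the pool, 0% of all probes passed for the wild-type mean and 0.0339% for the knockout mean (limma, adjusted p under 0.05), and none of the 55 did.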

How the data were processed

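The authors' deposited values were used as given, 1 log10 ratio per probe and array. Per the labels, total RNA was column-purified with DNase amplified by an automated aminoallyl method and labelled with Cy3 and Cy5. The series' design text adds that dyes were swapped. The scanner, background correction, normalization, log base and the merging of swapped dyes are not given in the sources used here. From the spread of the ratios, base 10 was inferred. Sample titles name the pool before the mouse and do not state which was divided by which. Mouse over pool was thus an inference and not a stated direction. Of 23574 probes, 17824 had 1 gene symbol in the platform annotation, which is old, 50 had several and 5700 none. Symbols were updated by Entrez ID for 17724 and by accession for 21, and 79 kept the old name. Probe sequences were not used here, so cross-reading between paralogs was not tested.

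The genotypes, 3 and 4 arrays, were compared in R 4.3.3 by limma's moderated test (version 3.58.1, eBayes, two-sided, Benjamini-Hochberg adjustment over all probes, threshold 0.05). Companion genes were fitted after averaging their probes. Named with values were C3ar1, the 10 members of smallest p, the 6 of largest SD over the 7 arrays, 29 measured of 31 listed well-known enzymes, and in each companion list up to 4 genes of smallest p, with Cyb5a, Nr1i3, Nr1i2 and Ahr whatever their values. Any other member could be named with its difference. Alas1, Glul, Nipal1 and the liver values of Cyp2b19 and Cyp2b23 were added after they were seen. Members and lists were chosen with earlier results of these data known. A simulation used independent normal noise with the moderated variance of each probe in place of the data. Differences of 0.1, 0.2, 0.4 and 0.8, given to random probes of the whole array, were recovered in 10%, 74%, 98% and 100%, with 7 false calls. These shares need not hold for the members, whose median SD was 0.0782 against 0.0360 over all probes. The number of arrays limits the precision. Same-numbered livers did not deviate together, so the numbers were not taken as pairs.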

Additional observations from a re-analysis of the deposited data

Results flagged for a closer look

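Wild-type liver 1 stood apart from the other 3 wild types in several members by the gap to its nearest neighbour (Dixon's criterion for groups of 4). Among the wild types it held the highest Cyp3a13 value, 0.2259, and the highest Cyp1b1 value, 0.0468. It held the lowest Cyp1a2 value, -0.2135, and the lowest Cyp2d9 value, -0.1013. Its median over the Cyp2d probes, -0.063, was also apart from the other wild types. These were 5 of 118 groups of values looked at, and chance alone flags about 1 in 20. The 3 knockouts were too few for this criterion.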

How the results depend on the processing

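No P450 probe passed the test in any of the 15 alternatives that refitted the probes, and the smallest adjusted p of any member was 0.662 (limma). Reading the ratios in base 2 rescales the folds and cannot change a p. Over all probes 1 passed, 0 with quantile or scale normalization, the replicate block, trend and robust fitting or an ordinary test, 4 over the more variable probes alone, and 0 to 3 without 1 liver. Of the 55 probes 27 kept their sign in each of the 15 alternatives that fitted them, a count given without a share over all probes. The fit over variable probes left out some of them, such as Cyp2c66 and Cyp2j13. That fit, trend and robust fitting and the ordinary test cannot change a difference. The replicate block gave the same differences as the fit without wild-type liver 1. So the alternatives are not 15 separate checks of a sign. The values that follow are those of the 35 probes that the naming rule took. Quantile normalization turned Cyp2c40 to 0.00199 and 0.00116 (probes 1 and 2) and Cyp2d10 to 0.0151. Array weights turned Cyp2b13 to 0.0185, Cyp2b9 to 0.114, Cyp2c40 to 0.0523 and 0.0674, Cyp2d10 to 0.0251, Cyp2e1 to 0.00791 and the third Cyp3a41a probe to 0.000621, and gave medians of 0.0124 for all members, 0.0376 for Cyp2c, -0.00331 for neutrophil and -0.00901 for heme genes. With the replicate block, whose numbers share no deviation (correlations -0.137, -0.205 and -0.154), Cyp1a2 was -0.00533, Cyp2b9 0.0188, Cyp2c29 -0.0120, Cyp2c40 probe 2 0.0176, Cyp2d9 -0.0273, Cyp2e1 0.00597 and Cyp2f2 -0.0194; wild-type liver 1 has no partner and drops out of that difference. With variable probes only, the medians were -0.136 for Cyp2a, -0.0600 for Cyp2j, -0.0127 for neutrophil and 0.0669 for pancreas and fat genes.

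Without 1 liver the ranges of medians were -0.0364 to 0.0124 for all members, -0.0501 to -0.0213 for Cyp2j, 0 to 0.0325 for neutrophil, -0.0469 to 0.0117 for heme, -0.0165 to 0.0447 for receptor target, -0.120 to -0.0284 for female-biased and -0.0733 to -0.0308 for pericentral genes. Differences that turned ranged from -0.00533 to 0.106 for Cyp1a2, -0.258 to 0.183 for Cyp2b9, -0.0843 to 0.142 for Cyp2b10, -0.288 to 0.120 for Cyp2b13, -0.0255 to 0.0456 for Cyp2c29, -0.123 to 0.00710 and -0.0812 to 0.0478 for Cyp2c40, -0.0918 to 0.000775 for Cyp2c54, -0.0332 to 0.111 for Cyp2c55, -0.0273 to 0.0691 for Cyp2d9, -0.0693 to 0.0131 for Cyp2d10, -0.0133 to 0.0950 for Cyp2d22, -0.00653 to 0.0675 for Cyp2d26, -0.0615 to 0.0479 for Cyp2e1, -0.0194 to 0.0878 for Cyp2f2, -0.0123 to 0.0164 for Cyp2u1 and -0.152 to 0.00400 for Cyp3a13. The cause of these shifts was not tested. In base 2 every fold is smaller: the Cyp2b9 range is 1.81-fold in place of 7.19-fold.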
